A study of Mus musculus with 6 samples.

Results

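The genes described here are 46 genes of glycolysis, pyruvate oxidation and the citric acid cycle, out of 21883 protein-coding genes with a position in the RefSeq annotation of mouse build GRCm38. They were chosen by name: 15 glycolysis genes from phosphohexose isomerase to pyruvate kinase, 26 genes of the mitochondrial steps, and 5 genes of cytosolic enzymes that handle the same intermediates. The enzymes that phosphorylate glucose were not analysed here. The data are CUT&RUN maps of the transcription factor MafA in MIN6 cells, an insulin-secreting line derived from a mouse insulinoma. In CUT&RUN an antibody directs a nuclease to chromatin in permeabilised cells, and the fragments it releases are read. Of 6 libraries, all from MIN6 cells, 2 replicates each were made with an antibody to MafA, with one to the histone mark H3K4me3 as the positive control, and with IgG as the negative control. No other treatment or genotype is labelled, and no IgG file was used here.

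Glycolysis splits glucose in the cytosol and ends in pyruvate. The pyruvate dehydrogenase complex then makes acetyl-CoA in mitochondria, which the citric acid cycle oxidises for respiration. In pancreatic beta cells this flux is the sensor for glucose, since the ATP it yields closes potassium channels and starts insulin release. MafA is a basic leucine zipper factor that binds the insulin promoter and marks mature beta cells. H3K4me3 is a histone mark found at the starts of active or poised genes.

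Peaks had been called on each library singly. The H3K4me3 lists held 16020 and 16904 peaks in replicates 1 and 2, and the MafA lists 33013 and 42747. A peak's fold enrichment, the ratio of fragments at its summit to a modelled background there, is the authors' value for that peak. The number of fragments at a summit was recovered from it, with medians of 759 and 263 for H3K4me3 and of 25 and 46 for MafA. A region below is the union of overlapping peaks of both replicates of a target, and there were 25894 such MafA regions and 15573 H3K4me3 regions. A gene had a region when the region lay in it or within 10 kb, and had it at its start when it lay within 1 kb of an annotated transcription start. Where a gene had no annotated start, either of its ends was taken. Among markers of beta cells, MafA regions lay at 8 of 8 genes and H3K4me3 at the start of 7 of 8, all but Ins1. Among 7 markers of other cells, 1 carried H3K4me3 at its start, the glucagon gene Gcg, and 5 had a MafA region within 10 kb. Of all protein-coding genes, 44% had such a MafA region and 57% such an H3K4me3 start. MafA fold enrichment was 21.0 and 11.1 at Gcg, and 17.8 and 26.2 near the albumin gene Alb. The labels do not say whether replicates were separate cultures, so the spread between them may be technical.

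MafA regions lay at 34 of the 46 genes (73.9%), against 44% of all protein-coding genes and 61.6% of the 12470 protein-coding genes with H3K4me3 at a start. Within 10 kb the shares of the pathways were close: 11 of 15 glycolysis genes (73.3%), 18 of 26 mitochondrial genes (69.2%) and 5 of 5 cytosolic genes had a MafA region. The strongest sites lay at the enolase gene Eno1 in glycolysis, at the isocitrate dehydrogenase gene Idh2 in mitochondria, and at Acly, Idh1 and Mdh1 among the cytosolic enzymes. At gene starts the counts differed more, with 3 of 15 glycolysis genes (20%) and 13 of 26 mitochondrial genes (50%), against 19.9% of all protein-coding genes and 33.4% of those marked by H3K4me3. That difference rested on MafA replicate 1, and in replicate 2 the shares were 60% and 61.5%. The 13 include Idh3a and Sdhc, which have no annotated start. Without such genes 11 of 24 mitochondrial genes (45.8%) had a start region.

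The promoters under the MafA regions are shown for the 5 members whose promoter also held TGCTGA, the letters that each side of the MAF recognition element shares. Each sequence is RefSeq's for GRCm38.p6, read 5′ to 3′ on the gene's strand from 250 bases before the start to 50 bases after it, with TGCTGA or its reverse complement TCAGCA in capitals.
Pdk3, chrX:93832101-93832400, minus strand: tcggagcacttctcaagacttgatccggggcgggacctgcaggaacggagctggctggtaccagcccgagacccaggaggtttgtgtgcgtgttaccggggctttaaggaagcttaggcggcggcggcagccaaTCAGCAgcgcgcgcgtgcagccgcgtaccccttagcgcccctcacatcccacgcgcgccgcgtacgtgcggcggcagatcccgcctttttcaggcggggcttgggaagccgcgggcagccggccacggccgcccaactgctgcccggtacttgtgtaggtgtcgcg
Idh2, chr7:80115301-80115600, minus strand: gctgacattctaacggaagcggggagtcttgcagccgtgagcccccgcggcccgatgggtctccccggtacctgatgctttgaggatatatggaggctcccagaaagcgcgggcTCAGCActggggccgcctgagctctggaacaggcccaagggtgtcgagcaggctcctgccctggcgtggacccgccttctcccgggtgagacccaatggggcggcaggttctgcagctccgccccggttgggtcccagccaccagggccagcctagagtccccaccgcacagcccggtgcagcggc
Pdk1, chr2:71872974-71873273, plus strand: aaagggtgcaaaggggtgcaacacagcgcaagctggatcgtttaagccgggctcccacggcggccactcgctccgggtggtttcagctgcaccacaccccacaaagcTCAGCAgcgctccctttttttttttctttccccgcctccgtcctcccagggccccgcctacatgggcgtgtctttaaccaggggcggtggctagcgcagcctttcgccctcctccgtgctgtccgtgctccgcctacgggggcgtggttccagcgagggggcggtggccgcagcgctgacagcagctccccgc
Suclg1, chr6:73248255-73248554, plus strand: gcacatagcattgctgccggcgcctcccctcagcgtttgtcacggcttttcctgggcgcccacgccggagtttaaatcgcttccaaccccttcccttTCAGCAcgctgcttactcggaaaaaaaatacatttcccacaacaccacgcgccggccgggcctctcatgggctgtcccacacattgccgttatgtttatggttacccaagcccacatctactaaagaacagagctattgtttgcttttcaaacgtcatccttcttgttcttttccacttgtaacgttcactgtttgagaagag
Mdh1, chr11:21571885-21572184, minus strand: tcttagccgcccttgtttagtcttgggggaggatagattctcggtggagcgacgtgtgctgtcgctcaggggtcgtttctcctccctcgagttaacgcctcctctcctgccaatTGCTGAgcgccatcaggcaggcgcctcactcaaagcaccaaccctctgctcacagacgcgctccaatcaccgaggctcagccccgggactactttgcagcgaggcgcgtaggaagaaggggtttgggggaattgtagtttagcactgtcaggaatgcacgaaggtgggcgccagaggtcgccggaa

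Promoter sequences were matched for 44 of the 46 genes, 63 sequences in all, and 26 of these, from 18 genes, lay under a MafA region (41.3%, against 16.5% of 21262 protein-coding promoters). By pathway the counts were 5 of 25 glycolysis sequences and 16 of 31 mitochondrial sequences. A gene with several annotated starts gave several sequences, which could overlap. Of the 16, 6 were from Ogdh, and of the 5, 3 were from Eno1, each under 1 MafA region. TGCTGA on either strand was in 5 of the 26 under a region (19.2%) and in 1 of the 37 others (2.7%), the promoter of Gpi1. Over all genes it was in 18.1% of promoters and in 18.7% of those under a MafA region, so the share at members under a region was close to that of all promoters. The whole palindrome, TGCTGA followed by its reverse complement, was in 0 of the 21262 promoters with 1 base between its sides and in 1 with 2 bases between them, at no member. In the printed promoter of Pdk3 the letters began at base 135, and lay 128 and 102 bp from the MafA summits of replicates 1 and 2. At Idh2 they began at base 115, at 70 and 114 bp from the summits. At Pdk1 they began at base 108, at 99 and 82 bp, and at Suclg1 at base 98, at 165 and 207 bp. At Mdh1 they began at base 115, at 33 bp from the summit of replicate 1 and 340 bp from that of replicate 2. A match describes the letters and not a bound site.

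**Figure D1:**
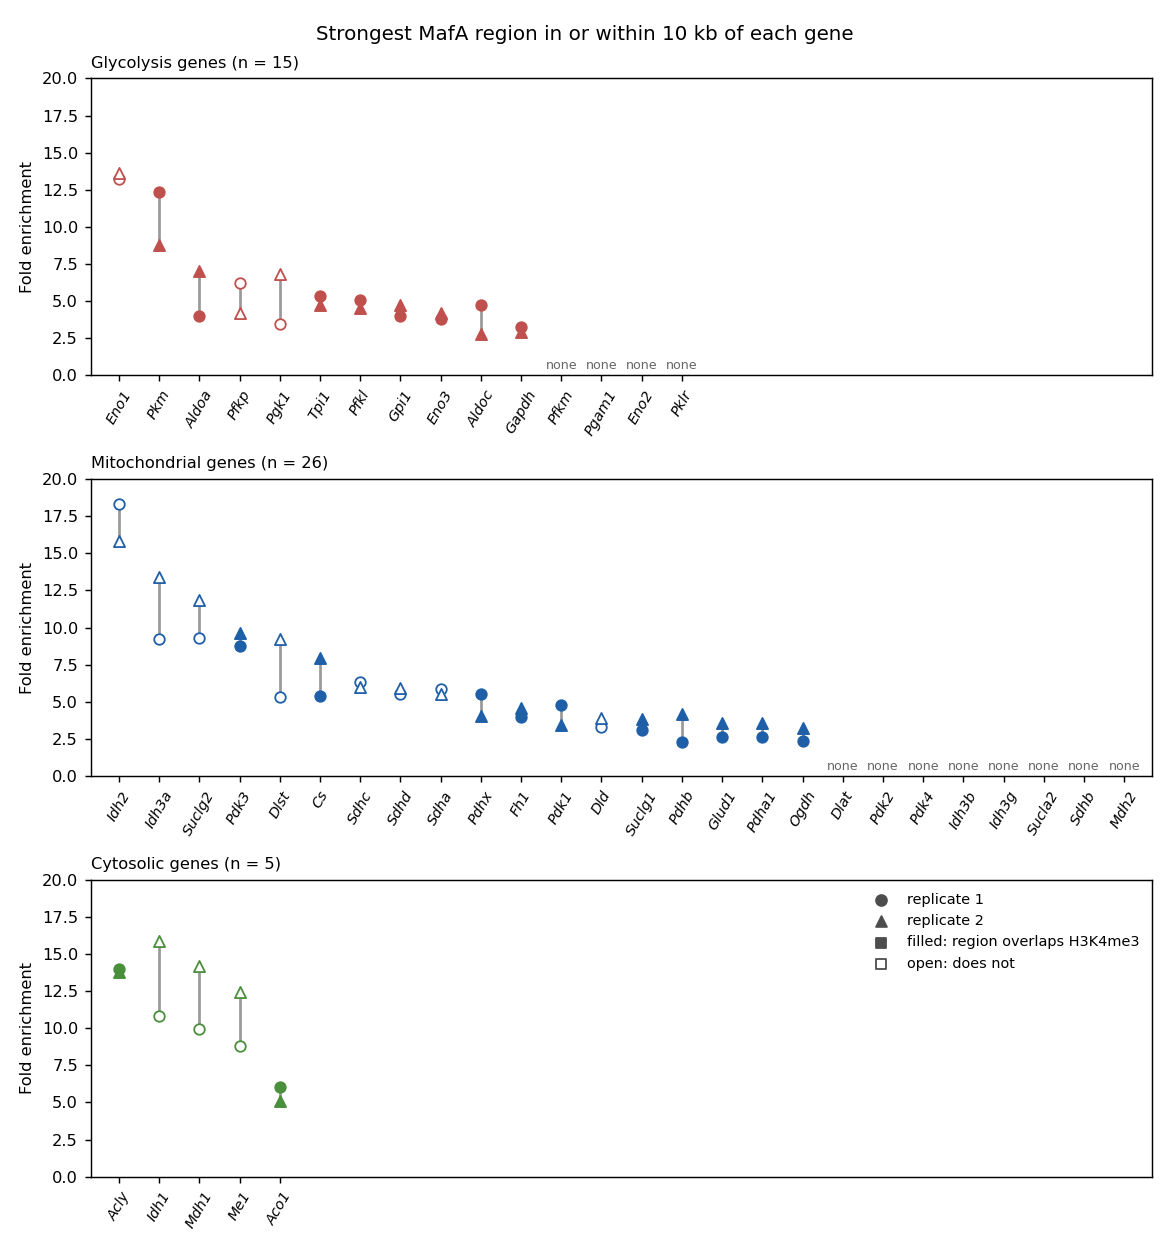
Fold enrichment (vertical axis) of the strongest MafA region of each gene, by pathway, with replicate 1 as circles and replicate 2 as triangles, filled where the region overlaps H3K4me3 and "none" where no region was found. Idh2 is highest at 18.3 and 15.8, Eno1 and Pkm stand above the other glycolysis genes, and 12 genes have no region.

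Most glycolysis genes carried MafA regions of modest strength, and Eno1 and Pkm stood above the others. Eno1 encodes the broadly expressed enolase, and had 6 MafA regions. The strongest, chr4:150230405-150231391, lay 5.9 kb upstream of the start, clear of H3K4me3, with fold enrichments of 13.3 and 13.6 from 72 and 136 fragments. Another lay 7.9 kb upstream at 6.00 and 8.58. The region at the Eno1 start itself was among the weakest at any member, at 2.05 and 2.80. That start region held 60 and 156 fragments. Its modelled background was 28.8 and 41, against 4.51 and 6.52 at the strongest site. For replicate 2 the background is in scaled units, with 0.746 to a fragment. So at Eno1 fold enrichment was higher at the distal sites than at the start in both replicates. Fragment numbers were of like size at the strongest site alone. They were lower at the other distal sites, as at 7.9 kb upstream with 23 and 62. Only 4.2% of protein-coding genes had 5 or more MafA regions, and 4 members did: Eno1 and Idh2 with 6 each, and Pkm and Suclg2 with 5 each.

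Pkm encodes the muscle-type pyruvate kinase, and all 5 of its regions lay inside the gene or downstream. The strongest, chr9:59677999-59679330, lay 21.5 kb from the start, at 12.3 and 8.77 from 41 and 53 fragments. It lay over an H3K4me3 region and only 0.503 kb from the start of the neighbour Gramd2, so the gene it belongs to cannot be told from position. A further region downstream of Pkm, also nearest to the start of Gramd2, reached 9.91 and 9.66. The strongest region nearest to the Pkm start lay inside the gene, at 7.26 and 6.65. No Pkm region lay at the Pkm start in both replicates. The liver-type pyruvate kinase gene Pklr had no MafA peak in either library.

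In the phosphofructokinase and enolase families MafA regions also lay at some members and not others, and both aldolase genes had regions. Among the phosphofructokinases, which commit glucose to glycolysis, Pfkl had a region at its start at 5.07 and 4.56. Pfkp had a region 13 kb inside the gene at 6.25 and 4.20, and Pfkm had a peak in replicate 2 alone, at 3.69. Among the enolases, the neuronal form Eno2 had no MafA peak, and the muscle form Eno3 had a region downstream at 3.79 and 4.19. That region lay over the start of Spag7. Among the aldolases, which split the fructose bisphosphate, Aldoa had its stronger region 9 kb upstream at 3.99 and 7.03, nearest to the start of Tlcd3b. The Aldoc region, at 4.75 and 2.76, lay over the start of Pigs.

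At the remaining steps the top values were at most those of Tpi1 and Pgk1, with means of 5.04 and 5.13. The isomerase gene Gpi1 had a region at 4.01 and 4.71, closest to Garre1. At Tpi1, for triose phosphate isomerase, the region was at 5.34 and 4.73 and closest to Spsb2. Gapdh, whose enzyme makes the NADH of glycolysis, had a start region at 3.25 and 2.93. At Pgk1, for phosphoglycerate kinase, a downstream region at 3.44 and 6.82 rested on 8 and 30 fragments. The mutase gene Pgam1 had a peak in replicate 2 alone, at 2.01. Thus the 5 genes Gpi1, Aldoc, Tpi1, Pgk1 and Eno3 had regions only nearer to another gene's start. Counting only regions nearest to the gene's own start left 6 of 15 glycolysis genes, 17 of 26 mitochondrial genes and 5 of 5 cytosolic genes, against 35.1% of all protein-coding genes and 50.6% of those marked by H3K4me3. That way of counting was chosen after the data were seen. The 17 include Idh3a and Sdhc, which have no annotated start, so either end of the gene was taken. Their MafA regions lay at the end opposite their H3K4me3 regions.

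**Figure D2:**
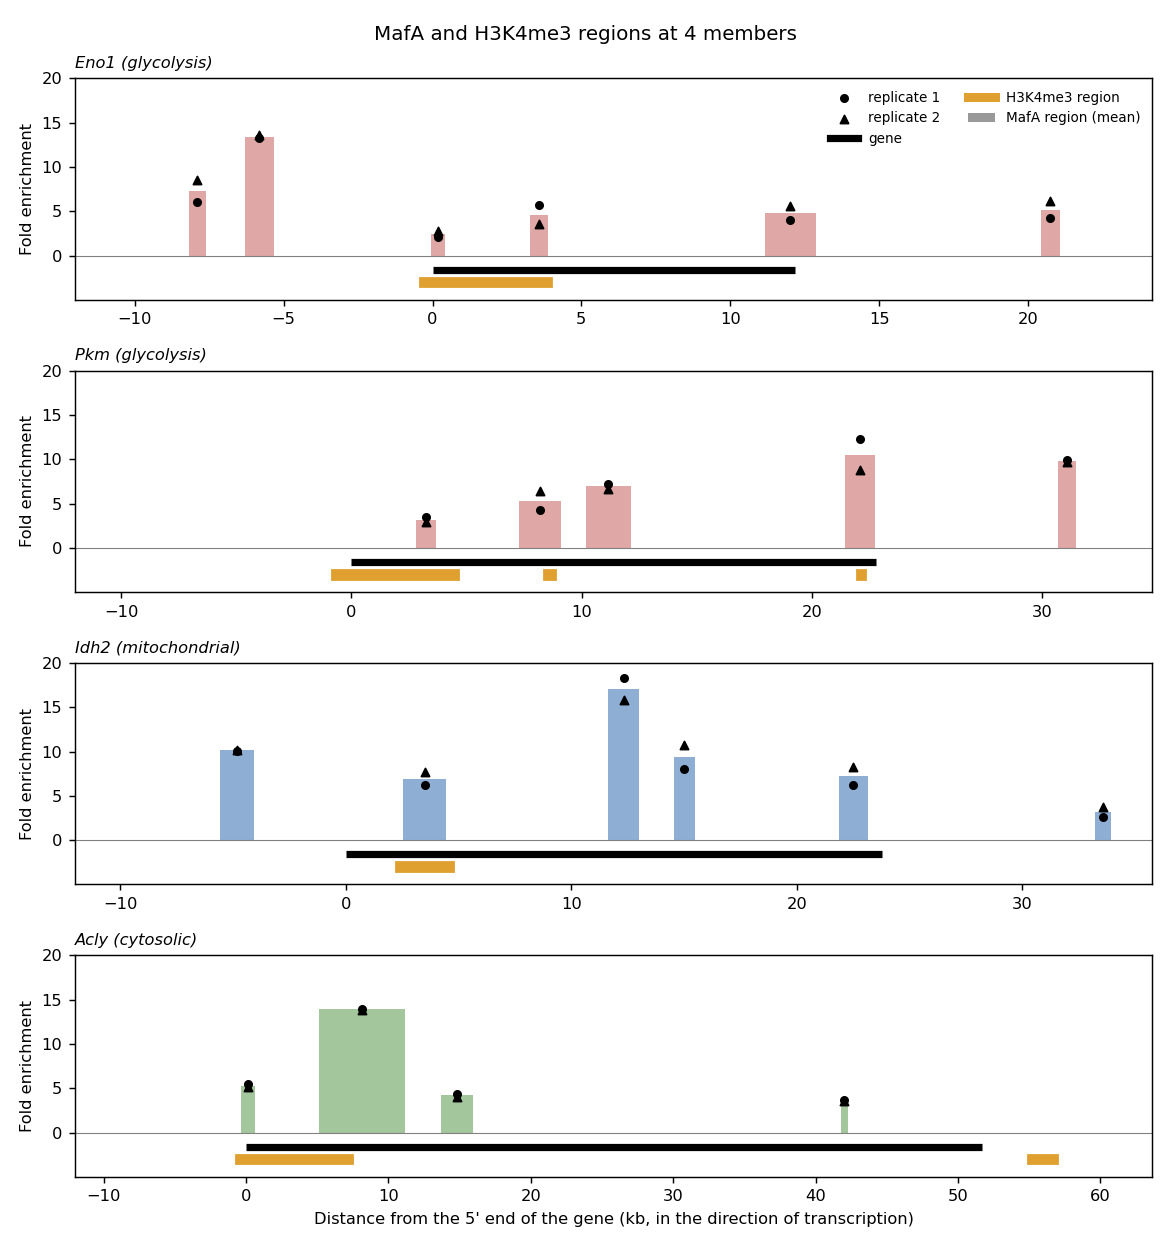
MafA regions as bars (mean fold enrichment) with each replicate as a circle or triangle, H3K4me3 regions in orange and the gene in black, against distance in kb from the gene's 5′ end, for Eno1, Pkm, Idh2 and Acly. The tallest bars at Eno1, Pkm and Idh2 stand away from the orange region at the start, and at Acly the tallest bar reaches into it.

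Of the mitochondrial genes, Idh2 had the strongest MafA region of any member. It encodes the NADP-dependent isocitrate dehydrogenase of mitochondria. The region, chr7:80105593-80106987, lay inside the gene 8.9 kb from the start, at 18.3 and 15.8 from 120 and 232 fragments. It ranked at the 96.3 percentile of all MafA regions. A region 8.1 kb upstream reached 10.1 and 10.2, and another inside the gene 8.01 and 10.7. The Idh2 start had a region at 6.21 and 7.72, with 136 and 276 fragments, the one whose promoter is printed above. All 6 Idh2 regions were nearest to the Idh2 start. The 3 subunits of the NAD-dependent enzyme differed: Idh3a had a region at 9.22 and 13.4, and Idh3b and Idh3g had no MafA peak in either library.

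The pyruvate dehydrogenase complex and its kinases also differed by member. The complex's subunit genes Pdha1 and Pdhb had weak start regions, at 2.60 and 3.60 and at 2.30 and 4.16. Pdhx, for the subunit that anchors the E3 enzyme, had a region within 1 kb of its start, at 5.55 and 4.01. That region lay over the start of Apip, which was the nearest start. Dlat, for the acetyltransferase, had no MafA peak. Dld, for the shared E3 enzyme, had a downstream region at 3.33 and 3.90, while the strongest peak of each replicate lay elsewhere, at 4.38 and 5.53. Of the kinases that switch the complex off, Pdk3 had a start region at 8.78 and 9.63, the strongest start region of any member with an annotated start. Pdk1 had one at 4.79 and 3.42. Pdk2 had a peak in replicate 2 alone, at 2.66. Pdk4, the kinase induced by fasting, had no peak of any library.

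In the rest of the cycle, Suclg2, for the GTP-specific succinyl-CoA synthetase subunit, had 5 regions, with the strongest 125 kb inside this long gene at 9.30 and 11.9. Its partner Suclg1 had a start region at 3.07 and 3.82, and Sucla2, for the ATP-specific subunit, had peaks in replicate 2 alone, at 4.86 at most. Dlst, for the succinyltransferase of the oxoglutarate dehydrogenase complex, had a region 16.6 kb inside the gene at 5.35 and 9.21. The E1 gene of that complex, Ogdh, had a start region at 2.36 and 3.25, the lowest top value of any member with a region by the mean over replicates. In replicate 2 alone the strongest Ogdh peak reached 4.23. Citrate synthase, Cs, had a region 7.1 kb inside the gene at 5.37 and 7.95. Of the 4 succinate dehydrogenase genes, Sdha (5.83 and 5.53), Sdhc (6.32 and 6.00) and Sdhd (5.54 and 5.91) had regions, and Sdhb had peaks in replicate 2 alone, at 5.42 at most. Fumarase, Fh1, had a start region with a mean of 4.28 over the replicates. The mitochondrial malate dehydrogenase gene Mdh2 had peaks in replicate 2 alone, at 3.32 at most. Glud1, for the dehydrogenase that feeds glutamate into the cycle, had a start region at 2.64 and 3.59.

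The 5 cytosolic genes all had MafA regions, and their median top value was the highest of the lists. Acly, for the enzyme that turns exported citrate into acetyl-CoA, had a region of 5988 bp at 14.0 and 13.8 from 139 and 267 fragments. When peaks had to overlap by 50% of each other, that Acly region was lost and the top value became 4.22. Its summits in the replicates were 0 bp apart, and the peak of replicate 2 was the wider. Idh1, the cytosolic isocitrate dehydrogenase, reached 10.8 and 15.9 at a site 24 kb from its start, downstream of the gene. Mdh1, the cytosolic malate dehydrogenase of the malate-aspartate shuttle, reached 9.98 and 14.2 at a site 9.6 kb upstream, nearest to Wdpcp. Me1, for malic enzyme, reached 8.79 and 12.5 at 3.2 kb from a start, inside the gene. Aco1, for the aconitase that also acts as an iron sensor, had the region with the most fragments of any member, 363 and 663 at its start. Its fold enrichments were 6.07 and 5.11, on a high modelled background of 59 and 96, the latter in scaled units. Fold enrichment and fragment number thus ranked these genes in different orders.

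Over the genes with a region, the median top fold enrichment was 5.04 in glycolysis, 5.23 in mitochondria and 12.1 in the cytosolic list, against 6.19 over all protein-coding genes with a region. On the log2 scale glycolysis minus mitochondria was -0.05, from values averaged over the replicates. The differences from each replicate's own values had an SD of 0.05 (n = 2), which is not a spread around -0.05. With each replicate's own values the medians were 4.75 in glycolysis and 5.36 in mitochondria in replicate 1, and 4.71 and 5.05 in replicate 2. Of the 64 regions at members, 5 ranked at or above the 90 percentile of all MafA regions, at Eno1, Idh2, Idh1, Mdh1 and Acly, and 40 ranked below the 50 percentile.

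**Figure D3:**
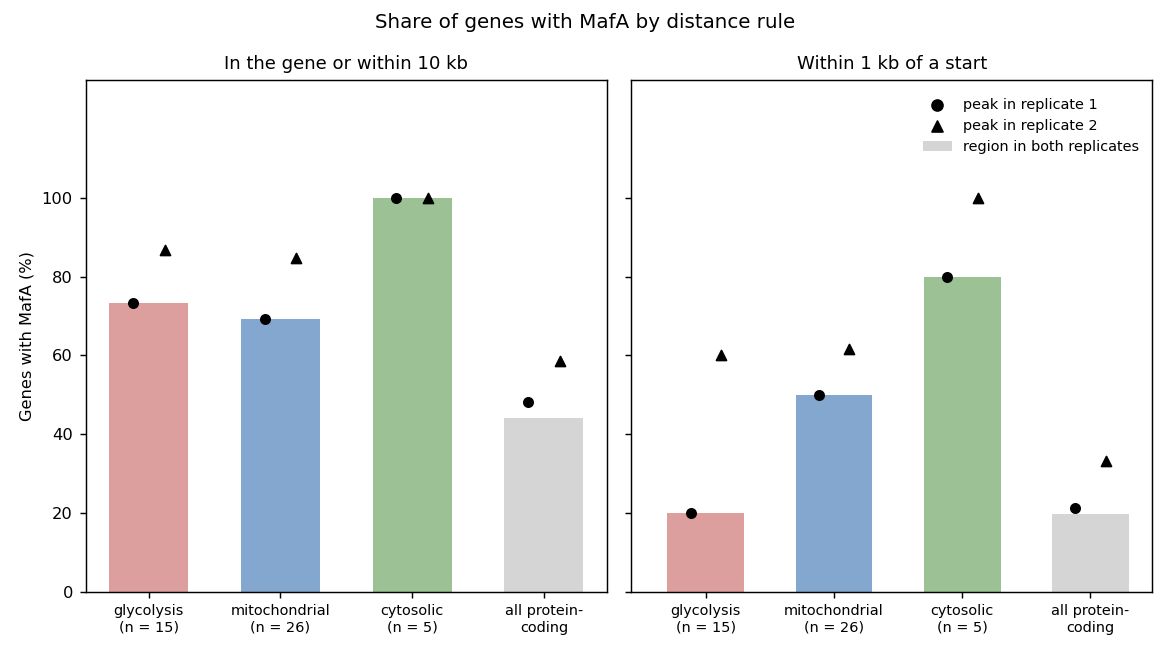
Percentage of genes with MafA (vertical axis) in the gene or within 10 kb (left) and within 1 kb of a start (right), with bars for regions found in both replicates and points for each library alone. At starts the glycolysis circle of replicate 1 is at 20% and the triangle of replicate 2 at 60%, beside 50% and 61.5% for the mitochondrial genes.

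The start counts of the pathways depended on the library. In MafA replicate 1, 3 glycolysis genes had a start peak: Pfkl, Gapdh and Eno1. In replicate 2 there were 9 (60%), with Gpi1, Pfkm, Pfkp, Aldoa, Pgam1 and Pkm added. Of the mitochondrial genes, 13 (50%) had a start peak in replicate 1 and 16 (61.5%) in replicate 2, with Pdk2, Sdhb and Sdhd added. Glycolysis minus mitochondria was thus -30 points in replicate 1 and -1.54 points in replicate 2, the library with more fragments at its summits. Over all protein-coding genes the share with a start peak was 21.1% in replicate 1 and 33.2% in replicate 2. Among the 13 mitochondrial genes, Idh3a and Sdhc have no annotated start in the sequence table, so either end of the gene was taken. Their MafA regions lay at the opposite end of the gene from their H3K4me3 regions. Without such genes the counts were 3 of 15 and 11 of 24 (45.8%).

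The lists also differed in gene length. Median gene length was 10.7 kb in glycolysis, 23.5 kb in mitochondria and 51.6 kb in the cytosolic list, against 17.2 kb over all protein-coding genes. Within gene bodies alone, MafA regions lay in 6 of 15 glycolysis genes and 16 of 26 mitochondrial genes, against 31.7% of all protein-coding genes. The part of length in these counts was not tested.

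The design allowed the difference between the pathways to be compared only between the targets, over the 4 libraries. Glycolysis against mitochondria was not itself tested. MafA peaks lay in or within 10 kb of 34 of the 46 genes in replicate 1, against 48.3% of all protein-coding genes, and of 40 in replicate 2, against 58.5%. H3K4me3 peaks did so at 45 genes in each replicate, against 65.6% and 66%. The share of glycolysis genes with a peak within 10 kb, minus the share of mitochondrial genes, was 4.10 and 2.05 points in the MafA libraries and 3.85 points in each H3K4me3 library. The targets differed by -0.769 points, with a two-sided exact permutation p = 1 over the 4 libraries, where the smallest p the design can give is 0.333, so the test could not have called a difference of any size. In other windows the same difference between targets was -28.3 points in gene bodies alone, -16.3 points within 1 kb of a start, -15.5 points with 5 kb and 9.62 points with 50 kb.

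Of the 46 genes, 45 had an H3K4me3 region in the gene or within 10 kb, against 65.2% of all protein-coding genes, and at the starts of 44, against 57%. Single libraries gave start peaks at 44 genes in replicate 1 (57.3% of all) and 45 in replicate 2 (57.5% of all). The exceptions were Pklr and Pdk4. Pklr had H3K4me3 regions upstream, at 8.01 and 8.71, and downstream, at 7.59 and 8.61, nearest to the start of Hcn3, and a start peak in replicate 2 alone. Pdk4 had no H3K4me3 peak within 10 kb. Both are isoforms known from liver and from fasted muscle and heart. The isoforms used in most tissues, such as Eno1, Aldoa, Pkm and Pfkl, were all marked at their starts, and so was the neuronal enolase Eno2 (13.6 and 10.6). The muscle enolase Eno3 was counted among the 44 through a region nearest to the start of the neighbour Pfn1. The edge of that region lay within 1 kb of the Eno3 start, but its summits in both replicates lay further away.

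**Figure D4:**
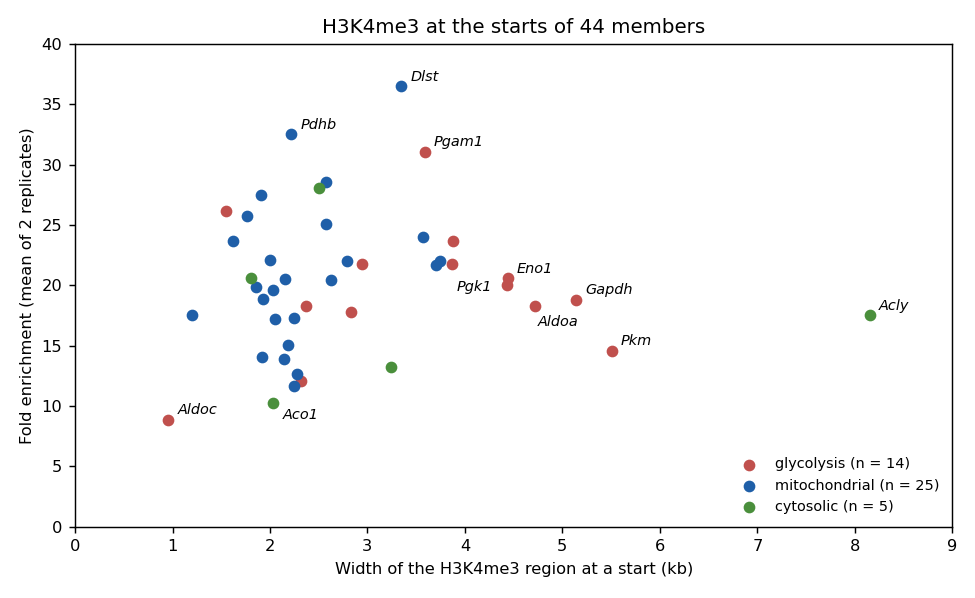
Mean H3K4me3 fold enrichment over both replicates (vertical axis) against the width in kb of the H3K4me3 region at the start, for 44 members coloured by pathway. The glycolysis genes Pkm, Gapdh, Aldoa, Eno1 and Pgk1 lie to the right of every mitochondrial gene, and Acly is widest.

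The median strength of the mark was close between the pathways, and its median width was larger in glycolysis in both libraries. Median fold enrichment at starts was 19.4 in glycolysis and 20.5 in mitochondria, against 17.8 over all marked genes. The strongest starts were those of Dlst, at 41.2 and 31.9, Pdhb, at 33.3 and 31.7, and Pgam1, at 33.4 and 28.7. Median width of the H3K4me3 region was 3727 bp in glycolysis, 2182 bp in mitochondria and 2164 bp over all marked genes. In replicate 1 alone the medians were 3687 and 2155 bp, and in replicate 2 alone 3511 and 2047 bp. The glycolysis medians of strength and width include the Eno3 region that was nearest to Pfn1, and were not recomputed without it. The widest lay at Acly (8158 bp), Pkm (5509 bp), Gapdh (5141 bp), Aldoa (4714 bp), Eno1 (4440 bp) and Pgk1 (4432 bp). The narrowest glycolysis mark was that of the brain aldolase Aldoc, at 958 bp.

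A strong H3K4me3 mark and a MafA region did not always go together. Pgam1, Dlat and Idh3b had H3K4me3 at 33.4 and 28.7, 30.5 and 26.6, and 27.8 and 27.1, and no MafA region. Pdk3, with the strongest MafA at an annotated start, had H3K4me3 at 13.6 and 11.7, below the median. Pdhb combined strong H3K4me3 with MafA of 2.30 and 4.16.

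Of the 64 MafA regions at members, 32 overlapped an H3K4me3 region (50%), against 30.5% of MafA regions at protein-coding genes and 23.5% of all MafA regions. In glycolysis 13 of 21 did (61.9%), and in mitochondria 13 of 30 (43.3%). Regions over H3K4me3 had lower fold enrichment, with medians of 4.35 and 4.17 in the replicates, than the others, at 5.98 and 6.91. They had more fragments at the summit, 57 and 145 against 28 and 62.5. The modelled background was higher there, at 14.7 and 25.2 against 3.58 and 6.00, with the values of replicate 2 in scaled units. Over all MafA regions the order was the same, with fold enrichment of 4.24 and 4.54 over H3K4me3 and 5.84 and 6.40 elsewhere. The part of background in the MafA calls at marked starts was not tested.

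**Figure D5:**
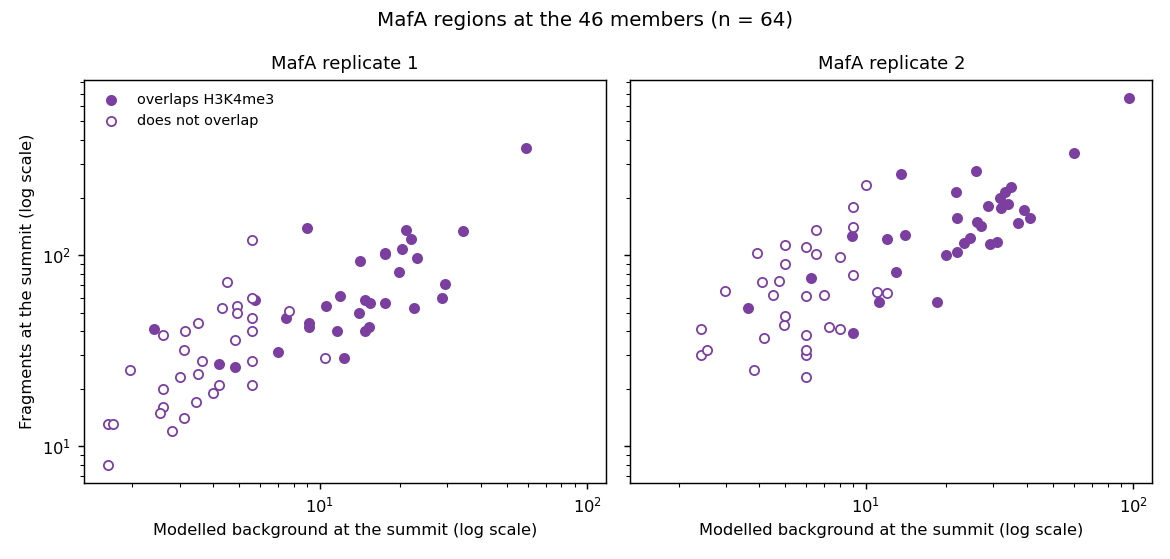
Fragments at the summit against modelled background at the summit, both on log scales, for the 64 MafA regions at members in each replicate, filled where the region overlaps H3K4me3. Filled points lie towards higher background and higher fragment numbers, with Aco1 at the far upper right at 363 and 663 fragments.

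Of the 12 members with no MafA region, 6 had no MafA peak in either library: Eno2, Pklr, Dlat, Pdk4, Idh3b and Idh3g. The other 6, Pfkm, Pgam1, Pdk2, Sucla2, Sdhb and Mdh2, had peaks in replicate 2 alone, and none had them in replicate 1 alone. Among 30 further genes of the same metabolism, 22 had a MafA region (44% of all protein-coding genes), 12 at the start (19.9% of all), and 27 had H3K4me3 at the start (57% of all). The strongest of these lay at Pcx, for pyruvate carboxylase, which feeds pyruvate into the cycle as oxaloacetate, at 19.2 and 20.4. Next came Gpd1, for the glycerol phosphate dehydrogenase of the NADH shuttle, at 15.7 and 18.2.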

How the data were processed

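The files analysed were 4 peak lists, 1 for each MafA and H3K4me3 library. Per the submitters' processing notes they were made with MACS2 on GRCm38, also named mm10. The MACS2 version and settings, aligner, duplicate handling and control library are not given in the sources used here. Fold enrichment, as deposited, is a linear ratio at each summit. The deposited p and q columns are −log10 values, the q limited to about 2.00 or more. The deposited score column was not used.

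Fragments at a summit were solved from the deposited ratio, taken as (pileup + 1) / (background + 1), and the Poisson p, with a scaling factor per library (0.415, 0.997, 1 and 0.746 for H3K4me3 replicates 1 and 2 and MafA replicates 1 and 2); at least 99.98% of peaks were solved. Modelled backgrounds are given in units of the scaled pileup, which is fragments times that factor. They are therefore in fragments only where the factor is 1. Regions needed an overlap of 1 bp or more. Tables were handled with pandas 2.3.3 and numpy 2.4.6 in Python 3.11.15, tests run with scipy 1.17.1 and plots drawn with matplotlib 3.10.9, and the routines were tested on simulated data. Gene positions, starts and promoters are RefSeq's for GRCm38.p6. Where a gene had no entry among the promoters, both its ends counted as starts. Distances run from a summit to the nearest annotated start. Percentiles rank the mean fold enrichment of both replicates among all MafA regions.

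All 46 members could be named; the 8 strongest of glycolysis and of the mitochondrial list, the cytosolic genes, and members where replicates or targets differ were given by library. Members, lists and rules were chosen with earlier results of these data known, so the counts of a list are described beside the share over all genes and carry no test. An exact permutation test over libraries compared the share difference between the pathways in the MafA libraries with that in the H3K4me3 libraries. It did not test one pathway against the other. The alternatives tried were 50% reciprocal overlap, a stricter q (−log10 of 5 or more), lists cut to the same number of strongest peaks, gene bodies alone, 5 kb, 50 kb and start windows, summits inside the window, fragments in place of fold enrichment, leaving out libraries in turn and a replicate block. No genome sequence was used, so letters outside promoters were not searched.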

Additional observations from a re-analysis of the deposited data

How the results depend on the processing

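The H3K4me3 counts kept within 1.5 times of their values under every alternative run. With only the strongest 16020 peaks of each list, MafA regions lay at 2 glycolysis, 8 mitochondrial and 14 of all 46 genes (22.9% of all protein-coding genes), at starts of 0 and 4, and 24.0% of member regions overlapped H3K4me3. In gene bodies alone glycolysis had 6 genes, with regions nearest to the own start 6, and at starts 3, with 20 of all members at starts and 90.5% of those regions over H3K4me3. Single libraries gave 3 to 9 glycolysis genes with a start peak, the 9 without MafA replicate 1. The log2 difference of the pathways' median top values (-0.05) was -0.21 at the stricter q, -0.15 at 50% reciprocal overlap, -0.21 with 50 kb, -0.47 at starts, -0.17 with the summit inside the window and -0.17 without either replicate; it turned to 0.54 with the strongest peaks, 0.0051 with 5 kb and 0.11 with fragments in place of fold enrichment. The difference between targets (-0.769 points) was -28.3 in gene bodies, -16.3 at starts, -15.5 with 5 kb, -11.8 with the strongest peaks and -5.51 at the stricter q, turned to 9.62 with 50 kb (exact permutation p = 0.333), and left-out libraries gave -1.79 to 0.256 (reversed without MafA replicate 2). With the replicate block it was -0.769 (exact permutation p = 1); same-numbered libraries share only a number. Single members lost their region most often with the strongest peaks (20 of 34), then at 50% reciprocal overlap (5: Aldoc, Pgk1, Eno3, Pdhx and Suclg1). The causes were not tested. The MafA lists, with medians of 25 and 46 fragments at summits, limit what weak regions can show.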
